A study of Homo sapiens with 6 samples.

Results

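Nm, the methylation of the ribose 2′-OH, was mapped by Nm-mut-seq in the chromatin-associated RNA of HepG2, a human liver cancer cell line, and the positions described here are those of RBM39. They comprised 2036 of the 176343 positions listed under imbalanced dNTP supply and 1138 of the 246881 listed under balanced supply, taken as every G, A or C on the gene's own strand between its annotated ends (hg38, chr20:35701347-35742312, minus strand, GENCODE release 44). The gene was selected on its number of called sites in introns, so depths, mutated reads and site counts in it are descriptions. No cells were treated: each of 3 replicates started from one harvest of HepG2 cells, and all 6 libraries come from the same line. The ligated RNA of a replicate was divided between a reverse transcription in which dATP was at 1 mM and the other dNTPs at 2 µM (imbalanced), so that a methylated G, A or C is read as T, and one with all dNTPs at 1 mM (balanced, the input). Positions with U cannot be read. As a check of the line, 12 of 14 hepatocyte marker genes held listed positions and 0 of 11 marker genes of blood, stromal, endothelial, neural and cardiac cells did.

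RBM39 is a nuclear RNA-binding protein related to U2AF2, the factor that recognises the polypyrimidine tract at the end of introns, and it takes part in the choice of alternative exons. It is known outside the field as the protein that indisulam and related sulfonamides send for degradation. Like many splicing factors, it limits its own level: its transcript can include a poison exon, which brings in a premature stop codon and so exposes the RNA to nonsense-mediated decay (NMD). Chromatin-associated RNA is largely nascent and not yet fully spliced, which is why introns can be read next to exons.

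Exons and introns were taken from the MANE Select transcript, which has 17 exons and 16 introns. Of the gene's 47 annotated transcripts, 16 are classed as NMD targets, and 7 of their cassette exons lie inside introns 2, 3, 11, 12 and 13; these are called NMD exons below. A position was called a site when, in each of the 3 replicates, it had a depth of at least 10 reads, at least 3 reads with T, and a mutation ratio (reads with T over depth) above 3 times that of the input. The study's further criterion, a spike-in background, was not used here. It can only remove sites, so the counts are at or above those that the full definition would give. Over the whole series 29651 positions were called without it. The paper reports far fewer sites under its full definition, so the excess may be large. The size of the excess in RBM39 was not tested. Under the criteria used here, RBM39 held 192 sites, 141 in introns and 51 in exons. The input comparison removed only 1 of the 193 positions that met the depth and read criteria, and 142 sites were absent from the balanced table.

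Of the sites described further on, 10 from introns, an NMD exon and exons are shown with the bases around them, since their flanks recur in the counts of sequence context. Each run is 29 bases of the minus strand of hg38, 5′ to 3′, written as DNA, with the site in capitals.
intron 12 G, chr20:35711365-35711393: tacagtgagtaattGtcgattgctacttg
intron 3 C, chr20:35732129-35732157: tggcgagtttttttCttctcaggaggaaa
intron 3 G, chr20:35734484-35734512: ttactttttaccttGttccctaattgaat
intron 3 G, chr20:35738840-35738868: tgaagcttttctttGctgcttttagaaaa
NMD exon 4 G in intron 3, chr20:35734204-35734232: ctctacatctccttGtgattggagtgtgg
intron 2 G, chr20:35739188-35739216: ttgatgacttaaatGtaagcaacaaagtg
intron 2 G, chr20:35739686-35739714: atgttaagattcttGtgtcttagtttttt
intron 2 G, chr20:35739706-35739734: aagagctactttctGttttaatgttaaga
exon 15 A, chr20:35705294-35705322: aagttggatgggatAccgagattaaggat
exon 17 G, chr20:35703902-35703930: gtaaaagtttctttGtaaatactatgtgt
In every one of these windows the base before the site is t, that is, a U in the RNA.

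The sites of RBM39 sat in a few stretches of the gene. Intron 2 (1806 nt) held 88 sites and intron 3 (6832 nt) held 49, together 97.2% of the intronic ones. Introns 12 and 13 held 2 each, and the other 12 introns held 0. Exons contributed 12 sites in exon 1, all of them 5′ untranslated, 11 in exon 8, 6 each in exons 9, 11 and 15, 4 in exon 17, 2 in exon 12, and 1 each in exons 2, 5, 7 and 10. By part of the message, 35 exonic sites were in the coding sequence, 12 in the 5′ untranslated region and 4 in the 3′ untranslated region. Introns held 73.4% of the sites (Wilson 95% interval 66.8 to 79.2). Such intervals cover counting error only, and neighbouring positions are read by the same molecules. The share was 7.27% with introns 2 and 3 left out.

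**Figure D1:**
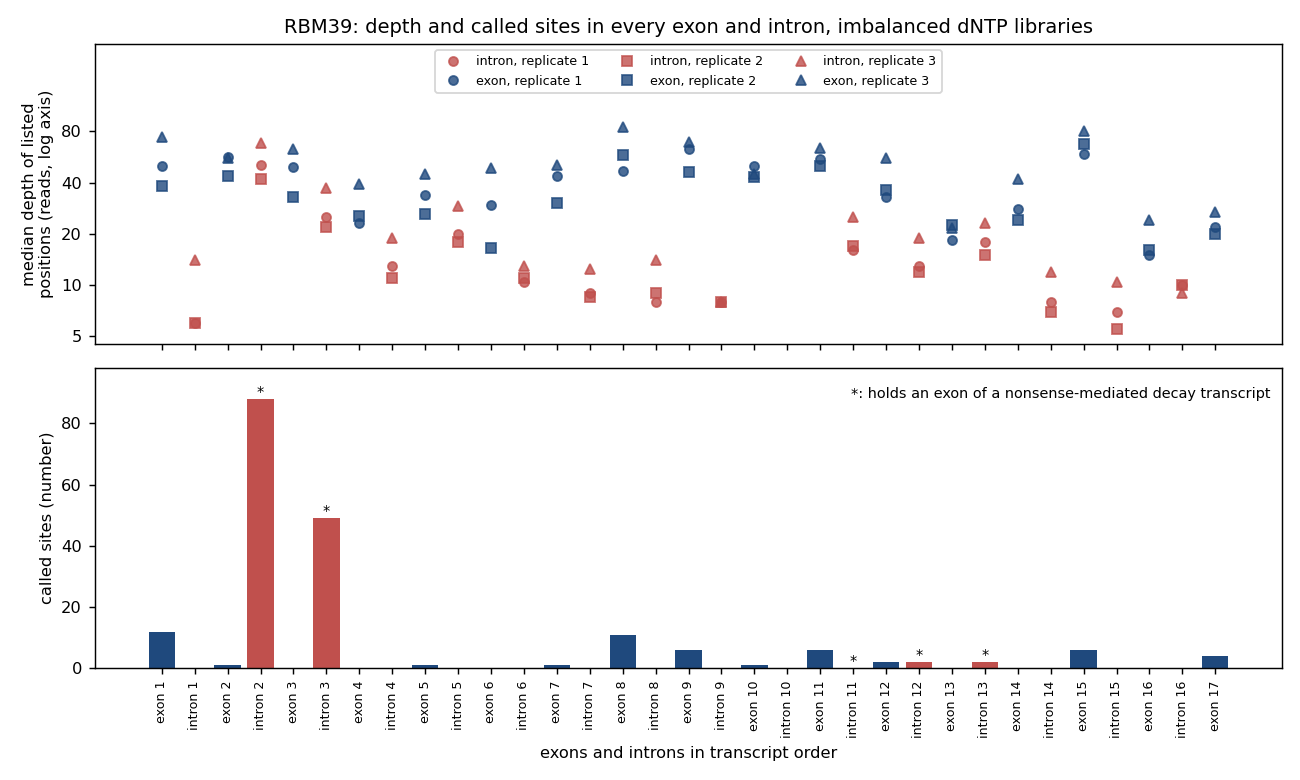
Top, median depth of the listed positions of each exon (blue) and intron (red) of RBM39 in reads on a log axis, with 1 symbol for each of the 3 imbalanced dNTP libraries; bottom, the number of called sites, with introns that hold an NMD exon starred. Intron 2 with 88 sites and intron 3 with 49 stand above every other intron, none of which holds more than 2.

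Per available base the picture was different. Exons other than the last held 3.36 sites per 100 G, A and C, and the long last exon held 0.183. Introns held 0.589 as a whole, but intron 2 held 7.32 and intron 3 held 1.08. The sites were 9.43% of the gene's listed positions (Wilson 95% interval 8.24 to 10.8), against 16.8% over all listed positions of the series. Within classes of the lowest depth over the imbalanced libraries, the gene and the series were close. At depths of 10 to 19 reads 2.26% of RBM39 positions and 2.42% of all positions were called. The shares were 9.72% and 9.11% at 20 to 39 reads, and 23.0% and 23.4% at 40 to 79. At 80 reads or more RBM39 had 9 positions, 3 of them called, while 72.8% of the series' positions at that depth were called.

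Depth was lower in introns than in exons, with intron 2 as the exception. The median depth of listed intronic positions was 25, 22 and 36 reads in imbalanced replicates 1, 2 and 3, and that of exonic positions 43, 37 and 56. Introns were therefore below exons in every library, with ratios of 0.581, 0.595 and 0.643 and a mean log2 ratio of -0.72 ± 0.08 (SD, n = 3; p = 0.25 by an exact permutation of the paired values, two-sided, and 3 pairs allow no smaller p). Intron 2 alone had medians of 51, 42 and 68, above the exons in all 3 libraries (log2 ratio 0.24 ± 0.05, SD, n = 3). Intron 3 had 25, 22 and 37, and the remaining introns 14, 13 and 20. In the balanced libraries the same order was seen: 99, 64 and 92 in intron 2, 81, 52 and 79 in exons, and 40, 27 and 40 in intron 3. The last exon, which carries the 3′ untranslated region, was shallow, with medians of 22, 20 and 27 in the imbalanced libraries.

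Introns that host an NMD exon and those that do not differed in what could be read. The 5 host introns held 1411 listed positions and all 141 intronic sites. The 11 others held 186 listed positions and 0 sites, with a Wilson 95% limit of 2.02% over all 186. Their median depth was 11, 11 and 16, and only 93 of those positions reached 10 reads in every imbalanced library. The rest could not be called, so the limit is too low for those that could. The contrast rested on introns 2 and 3, with 88 and 49 sites. Host introns 11, 12 and 13 held 0, 2 and 2 sites, at median depths of 16, 13 and 18 in imbalanced replicate 1. Intron 4, which has no NMD exon and 103 listed positions, held 0 at a median of 13 in that library. The number of molecules read per intron moved with the number of sites, and its part in the difference was not tested.

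Near the NMD exons themselves, 45 of the 141 intronic sites (31.9%) were inside one or within 200 nt of one, where 9.52% of all intronic G, A and C lie. Only 8 were inside. Within the host introns the picture was mixed, since NMD exon windows cover much of intron 2. There 35 of 88 sites (39.8%) but 58.7% of the G, A and C were in the windows, so that sites were sparser near the NMD exons, with 4.96 per 100 G, A and C against 10.7 further away. In intron 3 the windows held 10 of 49 sites (20.4%) and 13.6% of the bases, or 1.63 against 0.997 per 100. The sites of introns 12 and 13 were all outside. NMD exon 1 (chr20:35740525-35740597, 73 nt), which 8 transcripts use, begins 226 nt into intron 2. Its 25 listed positions had median depths of 39, 52 and 69 and included 4 sites. In the 200 nt upstream of it the medians were 22, 22.5 and 29.5 with 1 site, and in the 200 nt downstream 43, 41 and 59 with 8 sites. Depth thus rose across the start of this exon in all 3 libraries and stayed up beyond its end. In the balanced libraries the upstream medians were 37, 25 and 37, those of the exon 105.5, 71 and 87, and those downstream 93, 60 and 72. NMD exon 2 (chr20:35739393-35739547, 155 nt), annotated in 1 transcript, held 2 sites, while the 200 nt before it held 16 at median depths of 60, 54.5 and 86. Its upstream flank was thus deeper and richer in sites than the exon, whose medians were 34, 31 and 51.

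Of the NMD exons in intron 3, NMD exon 3 (chr20:35736513-35736567, 55 nt) had 7 listed positions and 0 sites. NMD exon 4 (chr20:35734186-35734257, 72 nt), used by 3 transcripts, had 13 listed positions and 2 sites, with 6 sites in the 200 nt upstream and 1 in the 200 nt downstream. No site lay inside or within 200 nt of NMD exons 5, 6 and 7, in introns 11, 12 and 13. When every exon of a transcript that is not itself a retained intron was counted as exon, NMD exons included, 112 sites (58.3%) remained intronic.

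**Figure D2:**
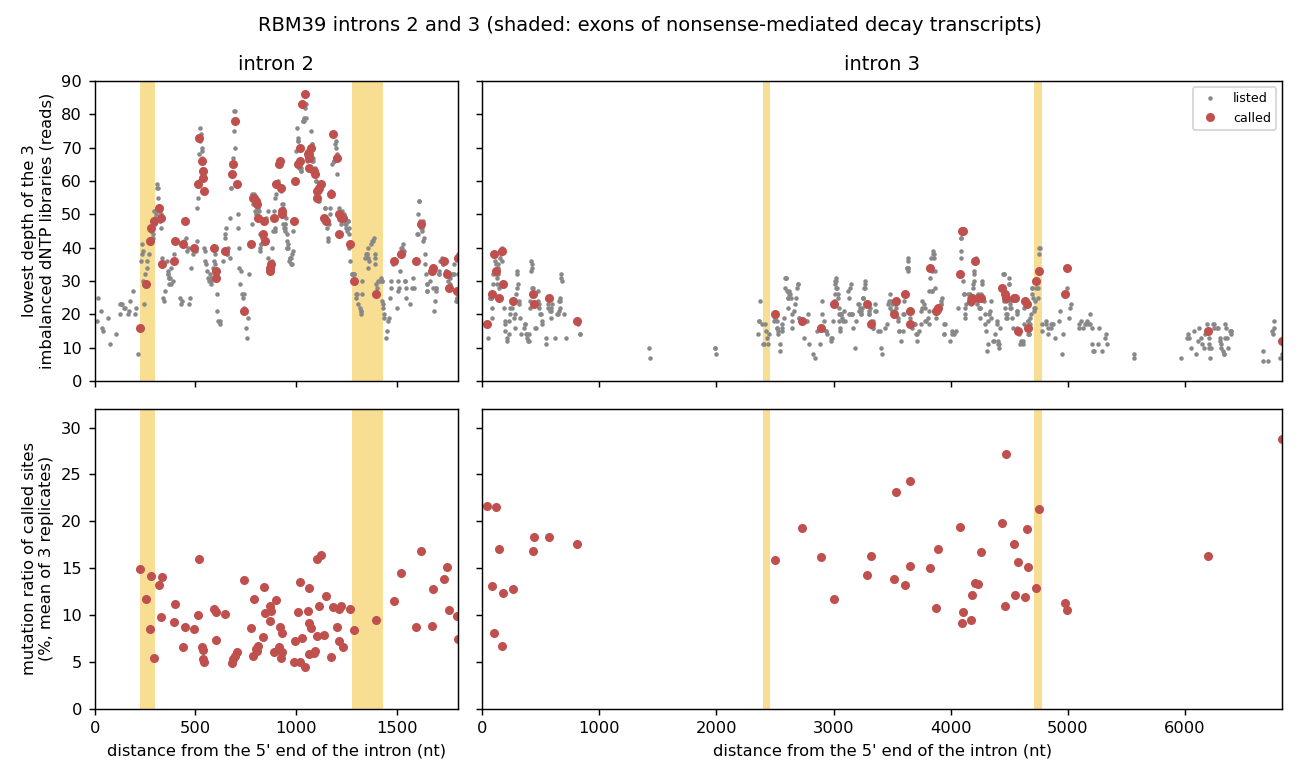
Top, lowest depth over the 3 imbalanced dNTP libraries of each listed position (grey) and called site (red) of introns 2 and 3, and bottom, the mean mutation ratio of the called sites, against the distance from the start of the intron in nt, with NMD exons shaded. Sites fill most of intron 2 beyond its first 200 nt, which hold 0, and are spread more thinly over the longer intron 3.

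Splice sites did not gather sites evenly. The first 200 nt of intron 2 held 18 listed positions and 0 sites, and its last 200 nt held 59 and 8. Intron 3 showed the opposite, with 38 listed positions and 7 sites in the first 200 nt and 10 and 1 in the last. Over all introns, 16 sites were within 200 nt of a splice site among 256 listed positions, and 125 were further away among 1341. Sites also lay close to each other. In intron 2, 63 of 88 (71.6%) had another site within 10 nt and the median gap was 11 nt, whereas in intron 3 the numbers were 12 of 49 (24.5%) and 39 nt. Reads of one molecule cover neighbouring sites, so such sites are not independent observations.

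The mutation ratio was slightly higher over all introns than over exons, but not in intron 2, and the gap narrowed with depth. Over listed positions with at least 10 reads, it was 6.63%, 6.84% and 6.81% in introns and 5.53%, 5.51% and 5.64% in exons. The difference was positive in each library and averaged 1.20 ± 0.12 percentage points (SD, n = 3; two-sided exact permutation of pairs, p = 0.25, again the lowest reachable). Intron 2, which holds most of the intronic sites, had 5.21%, 5.79% and 5.44%, below the exons in 2 of 3 libraries, and its difference of -0.081 ± 0.32 points was within the spread. Intron 3 had 7.91%, 7.55% and 8.04%, above the exons in all 3 libraries by 2.27 ± 0.20 points (SD, n = 3 each). A position enters the imbalanced table only with 3 or more reads with T in some library, so that a shallow position cannot show a low ratio. For 51.2% of intronic and 42.1% of exonic positions the highest library had just those 3 reads. Compared at like depth, the difference was 1.36 ± 1.74 points at 10 to 19 reads and positive in 2 of 3 libraries. At 20 to 39 reads it was 0.94 ± 0.22 points and positive in all 3. At 40 to 79 reads it was 0.19 ± 0.40 points (SD, n = 3 each), with 1 library below 0, and was not larger than its spread.

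**Figure D3:**
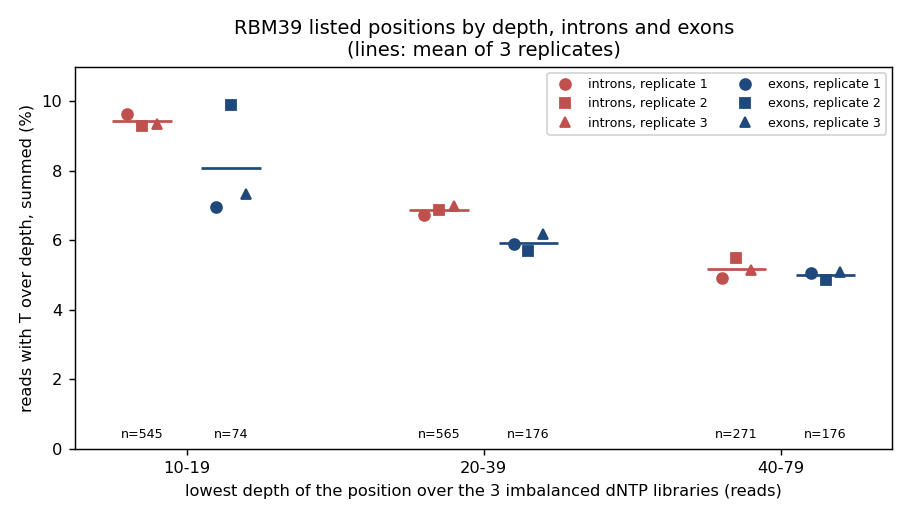
Mutation ratio in percent (reads with T over depth, summed over positions) of intronic (red) and exonic (blue) RBM39 positions by class of lowest depth, with a symbol for each imbalanced dNTP library, lines at the means and the number of positions under them. Ratios fall as depth grows in both kinds, and the groups overlap at 40 to 79 reads.

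Among called sites the median of the mean mutation ratio was 9.40% in exons. Intron 3 stood at 15.3% and intron 2 at 8.80%, with median lowest depths of 25 and 49 reads. The shallower intron thus had the higher ratios.

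G was the main base. It made up 135 of the 192 sites (70.3%, Wilson 95% interval 63.5 to 76.3). In introns the share was 68.1% (60.0 to 75.2) against 31.6% of all intronic G, A and C, and in exons 76.5% (63.2 to 86.0) against 32.1%. Introns 2 and 3 differed. Intron 2 stood at 56.8% (46.4 to 66.7) against 27.0%, and intron 3 at 85.7% (73.3 to 92.9) against 32.6%. A accounted for 33 intronic and 7 exonic sites, and C for 12 and 5. Listed positions stood between, with 42.3% G in introns and 44.4% in exons. The mutation ratio of listed positions at depth 10 or more was also highest for G in both: 8.23% in introns, where A had 5.57% and C 6.16%, and 6.46% in exons, where A had 4.64% and C 5.11%.

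A U next to the base went with a call in both parts of the gene. The base before an intronic site was U in 82.3% of cases, against 30.7% for all intronic G, A and C, and the base after it in 60.3%, against 30.7%. In exons the shares were 78.4% before, against 26.8%, and 43.1% after, against 26.7%. The full UNU context, where N is the read base, surrounded 48.2% of intronic and 33.3% of exonic sites, against 9.77% and 8.60% of all positions. Of the printed windows, all but those of the intron 3 G at 35738854 and the exon 15 A hold it. Listed positions again stood between, so part of these contrasts came with listing and not with the call. Among intronic and exonic listed positions, U came before 62.5% and 45.1% and after 47.8% and 36.0%. UNU surrounded 29.1% and 15.7% of them.

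The sites with the highest ratios were mostly in introns. A call needs at least 3 reads with T in each library, so a shallow site can only be called at a high ratio. The G of intron 12 at 35711379 was read as T in 9 of 25, 4 of 18 and 6 of 14 reads of replicates 1, 2 and 3 (33.7 ± 10.5%, SD, n = 3), against 1 of 38, 0 of 25 and 1 of 33 reads in the balanced libraries. No imbalanced value came near a balanced one, which the calling rule requires in part, and the spread among the 3 was wide. The C at 35732143 lies 8 nt from exon 4, in the pyrimidine stretch before the AG that ends intron 3, and was mutated in 4 of 16, 4 of 12 and 7 of 25 reads (28.8 ± 4.22%). Further into intron 3, the G at 35734498 had 8 of 37, 7 of 25 and 16 of 50 reads with T (27.2 ± 5.23%). Neither position was listed in the balanced table, which needs at least 1 read with T.

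Several strong sites were tied to annotated features. The G at 35738854, 114 nt into intron 3, had 9 of 42, 6 of 33 and 14 of 56 reads with T, with 0 of 49, 1 of 35 and 0 of 73 in the input (21.5 ± 3.41%; log2 change 5.02, adjusted p = 2.7e-04 in edgeR's quasi-likelihood test). The edgeR values given here and below are for sites already called for a ratio above the input in the same reads. They describe those sites and are no separate support. Inside NMD exon 4, the G at 35734218 had 8 of 33, 5 of 34 and 12 of 48 (21.3 ± 5.74%). Upstream of the same exon, G at 35734317 (60 nt away) reached 19.2% and G at 35734431 (174 nt away) 17.6%. All 3 of these G positions were absent from the balanced table.

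Around NMD exon 2 in intron 2, more reads stood behind the values. The G at 35739700, 153 nt before the exon, had 11 of 61, 11 of 59 and 13 of 104 reads with T against 0 of 150, 0 of 93 and 1 of 132 in the input (16.4 ± 3.38%; edgeR log2 change 5.72, adjusted p = 2.9e-07). The G at 35739720, 20 nt away from it, had 10 of 69, 11 of 55 and 14 of 103 (16.0 ± 3.47%). On the other side, the G at 35739202 is 185 nt from the end of intron 2 and had 11 of 47, 8 of 54 and 10 of 81 (16.9 ± 5.80%; edgeR log2 change 5.39, adjusted p = 2.4e-05). These 3 sites were of like size within their spread. The deepest intronic sites, G at 35739780 and 35739792, had far lower ratios of 4.45 ± 0.98% and 7.55 ± 3.98%. Such ratios can be called only at deep positions.

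**Figure D4:**
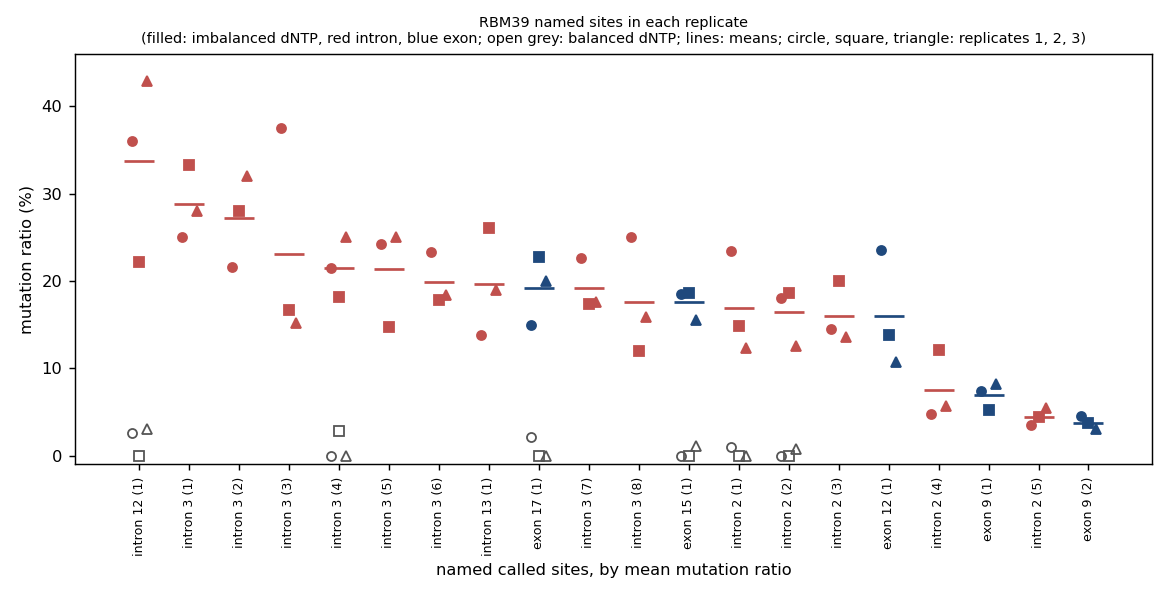
Mutation ratio in percent of the named RBM39 sites in each imbalanced (filled, red in introns and blue in exons) and balanced (open) dNTP library, with lines at the imbalanced means; sites without open symbols were absent from the balanced table. Where both are drawn, every imbalanced symbol lies above every balanced one of the site, which the calling rule requires within each replicate. The spread among replicates is widest at sites in introns 3 and 12.

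In exons the strongest sites were lower. Called sites there were also deeper, with a median lowest depth of 47 reads against 38 in introns, and so could be called at lower ratios. An A in the coding part of exon 15 at 35705308 was read as T in 10 of 54, 13 of 70 and 12 of 77 reads (17.6 ± 1.71%), against 0 of 89, 0 of 49 and 1 of 87 in the input (edgeR log2 change 5.11, adjusted p = 4.8e-05). It was the highest of the gene's A sites and had the smallest spread of the named sites above 15%, and its neighbours are U and C. A G in the 3′ untranslated part of exon 17 at 35703916 had 3 of 20, 5 of 22 and 5 of 25 (19.2 ± 3.92%; edgeR log2 change 4.21, adjusted p = 0.0175). A coding G of exon 12 at 35713038 had 8 of 34, 4 of 29 and 6 of 56 (16.0 ± 6.69%). In exon 9, C at 35721766 and G at 35721770, the deepest exonic sites, had 3.75 ± 0.72% and 6.97 ± 1.54%.

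Some of the exonic sites have a second place in the genome to which their reads could belong. The 101 bases around 18 of the 51 exonic sites, but only 1 of the 141 intronic ones, matched chromosome X at 95% identity or more over at least 50 nt, 17 of them in the processed pseudogene RBM39P1 (hg38, chrX:44029332-44030921). The sites named in exons 12, 15 and 17 are among the 18. No position of the pseudogene was listed in either table, and none of the matched bases there is a T. The part of reads from the pseudogene in these sites was not tested. Without the 19 matched sites 173 remained.

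The balanced libraries gave the input ratio, which is not the spike-in background. They do not show how often unmethylated bases are read as T under imbalanced supply, so that part of the excess was not tested. Over the 301 positions in both tables, intronic ones were mutated at 7.03 ± 0.05% under imbalanced and 0.96 ± 0.07% under balanced supply, and exonic ones at 5.93 ± 0.16% and 0.40 ± 0.04% (SD, n = 3). The higher balanced ratio of introns rested in part on 2 positions read as T in at least 50% of the reads of every balanced library. Without them the intronic ratios were 6.65 ± 0.03% and 0.57 ± 0.05%. Balanced positions of RBM39 mostly held a single mutated read: 1053 of 1138 (92.5%) had 1 read with T over the 3 libraries.

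The mutated share was tested with edgeR's quasi-likelihood test only at positions listed in both tables with enough depth in all 6 libraries. RBM39 had 290 of them, each with at least 1 read with T under balanced supply. The 142 sites absent from the balanced table were therefore not tested. In this test 112 of the 290 were higher under imbalanced supply (adjusted p below 0.05), 78 of 211 in introns and 34 of 79 in exons. Over the whole series the share was 73.9%. None of the 290 was lower, also at an unadjusted p below 0.05 and in DESeq2. Since the imbalanced table lists positions for their reads with T, a higher share there is partly built in. The gene's lower share again went with depth: 10.5% of RBM39 and 10.1% of all positions were higher at 10 to 19 reads, 32.5% and 29.5% at 20 to 39, and 58.8% and 55.4% at 40 to 79. Without replicate 1, 2 or 3 the count in RBM39 was 22, 29 or 22 by the same test. The median log2 change was 3.27 in RBM39 and 4.01 over all positions.

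Other splicing factors gave a scale for the introns. Of a list of 56 splicing factor genes, 49 had listed positions, 13 had sites and 9 had sites in introns, 83 intronic sites in all. HNRNPC, which binds U-rich stretches of introns, had 44 and HNRNPH1, which binds G-rich stretches, had 24. HNRNPA2B1 and DDX5 had 3 each, DDX39B had 2, and SRSF6, SF3B1 and DDX17 had 1 each. RBM39 alone thus had more intronic sites than the whole list, a comparison that its choice fixed. In the ratio of intronic to exonic depth, RBM39 (0.581 to 0.643) lay between A2M, which encodes a protease inhibitor secreted by hepatocytes (0.419 to 0.426), and FNDC3B (0.840 to 0.938). These ratios cover listed positions only, which need reads with T, so they do not give the coverage of all bases. FNDC3B was shallow in both parts, with medians of 15, 14 and 21 in introns and 16, 15 and 25 in exons. A2M had 442 intronic sites in 25 introns, the top 2 of which held 44.3%. FNDC3B had 222 in 7 introns, and its top 2 held 93.7%, against 97.2% in RBM39.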

How the data were processed

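Members and lists were chosen with earlier results of these data known. The authors deposited counts per position (reads with T, A, C, G and depth) for 3 imbalanced and 3 balanced dNTP libraries, numbered by biological replicate, in 1 table each. RiboMinus removed rRNA, and short RNA was removed. The authors trimmed reads with Cutadapt, removed UMI duplicates with BBMap, aligned with TopHat2 to hg38 and called mismatches with JACUSA (versions not given in the sources used here). TopHat2 may place reads of repeated sequence at several loci. Depth summed over all listed positions was 17063930 to 22485865 in imbalanced and 22974020 to 34367262 in balanced libraries. In RBM39 it was 59470 to 93571 and 42908 to 64679, with 3971 to 6345 and 384 to 529 reads with T. All listed bases of RBM39 equal hg38. The imbalanced table lists positions with at least 3 reads with T in some library and a depth of at least 5 in every one. A position missing from the balanced table was given an input ratio of 0.

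Both tables were joined by position in Python 3.11.15 (pandas 2.3.3). The mutated share was tested with edgeR 4.0.16 (R 4.3.3) on reads with and without T, with an effect per library and the replicate as a block. The test covered the 32284 positions listed in both tables with at least 10 reads in every library, with Benjamini-Hochberg adjustment. The block was set because each replicate's RNA was divided between the reactions. Depth deviations correlated at 0.75, 0.59 and 0.87 between libraries of the same number, over 24432 positions. Between replicates 1 and 2 they correlated about as much (0.70 and 0.60), so this check does not tell those numbers apart, and the pairing rests on the protocol. Identical counts between replicates were found at no more than 1.58% of RBM39 positions. In data simulated for this test 172 of 200 changed positions were recovered, with 4 false calls. The changed positions were drawn from the whole series, where 22613 of the 32284 had 80 reads or more. In RBM39 2 of 290 did, so the recovery does not carry over to this gene. Intron and exon values were compared over the 3 libraries by exact permutation. Windows of 101 bases were matched to hg38 with BLAST+ 2.17.0.

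Named positions were the 6 intronic and 3 exonic sites with the highest mean ratio at a lowest depth of 20, the top G, A and C, the 2 deepest in introns and in exons, and up to 6 within 200 nt of an NMD exon; the text gives values for most of them. The match to RBM39P1 was looked for after the data were seen. Alternatives were other depths, T reads, ratios and folds, other exon sets, no block, DESeq2 1.42.0, Fisher's exact test and leaving out each replicate. The spike-in criterion was not applied.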

Additional observations from a re-analysis of the deposited data

How the results depend on the processing

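Against the 192 sites, 63 passed a depth of 50, 50 at least 5 reads with T, 57 a ratio of 10% in every replicate, and 50 when positions missing from the balanced table were left out. With the libraries exchanged 0 passed. That count was nearly fixed in advance, since 1053 of the 1138 balanced positions had a single read with T over the 3 libraries. Without one replicate the count was 251 to 384 (370, 384 and 251 without replicates 1, 2 and 3). The intronic share of 73.4% became 66.7% at depth 50, 84.2% at a ratio of 10%, 58.3% with exons of other transcripts and 7.27% without introns 2 and 3 (chosen after seeing the data), and was 71.7% to 76.2% without one replicate. The share of G, 70.3%, was 61.9% at depth 50, 78.0% with 5 reads with T, 86.0% at a ratio of 10%, and 58.1% to 66.5% without one replicate. The 112 positions higher in edgeR became 184 with no replicate block, 23 by Fisher's exact test in every replicate, and 22 to 29 without one replicate. With a size factor for each column of reads with or without T (chosen after seeing the data), which by construction takes out a shift shared by all positions, edgeR called 0, also at an unadjusted p below 0.05. DESeq2 called 141, 109 of them shared. The intron minus exon ratio stayed positive, from 0.15 points at depth 50 to 4.10 without introns 2 and 3, in all alternatives but intron 2 alone (-0.081, chosen after seeing the data). The log2 depth ratio was below 0 in all but 1 alternative, intron 2 alone (0.24, chosen after seeing the data). Most RBM39 positions had a lowest depth under 40 reads, where the minimum of 3 reads with T cannot show a ratio of a few percent.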

Other observations

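In the balanced libraries, 3 positions of RBM39 had a mean mutation ratio of 10% or more, all of them C. In intron 2 the C at 35740352 was T in 54 of 54, 44 of 44 and 57 of 57 reads of the balanced libraries and in 25 of 25, 31 of 31 and 44 of 44 reads of the imbalanced ones. In intron 12 the C at 35712842 was T in 14 of 21, 5 of 10 and 9 of 12 balanced reads and in 3 of 5, 4 of 6 and 12 of 21 imbalanced reads. Neither was called as a site. In intron 4 the C at 35731497 had 5 of 29, 1 of 17 and 2 of 19 balanced reads with T and was absent from the imbalanced table.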
